A study of Mus musculus with 2 samples.

Results

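The genes followed were Cd44, Has1, Has2, Prg4, Tnfaip6 and Vcan. They were chosen by name as 6 of the 27998 genes listed in both deposited single-cell matrices, and all 6 had a single row with its Ensembl identifier. They were read in 2 libraries of tendon cells at postnatal day 7 (P7), each made from the limbs of 2 pups, front and rear, whose tissue was pooled and digested with enzymes, 1 labelled wild type in its title and 1 labelled mutant. The study gives the mutant as Tgfbr2 f/-;ScxCre, with a floxed allele of the TGFβ type II receptor gene over a null one and a Cre driven by Scleraxis (Scx), the transcription factor that marks tendon cells. It describes ScxCre as uneven in embryonic tenocytes and as reaching all tenocytes only early after birth. The methods state that every mouse carried the ScxGFP reporter and the Ai14 Rosa26-tdTomato Cre reporter, and that the tissue-scraping step was omitted here. The library called wild type in one label is called Het in another, so it is named the control library here.

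Hyaluronan is a long unsulphated sugar chain that Has enzymes spin out through the plasma membrane from nucleotide sugars. Ugdh, Ugp2 and Uap1 take part in the synthesis of these sugars. Vcan (versican) is a large proteoglycan that binds the chain, Tnfaip6 (TSG-6) transfers protein heavy chains onto it, and Cd44 is the surface receptor that cells use to hold it. Prg4 (lubricin) is a mucin-like glycoprotein that lubricates the gliding surfaces of tendon and joint and also binds Cd44. In tendon these products are best known from the sheath and the loose connective tissue around the fascicles, where gliding takes place.

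Cells were assigned to groups by their counts of unique molecular identifiers (UMIs), each of which stands for 1 captured mRNA molecule. Scx-high cells held at least 30 Scx UMIs per 10000 of their own. Scx-low fibroblasts held fewer, with at least 5 UMIs over Ly6a, Cd34, Dpt, Lum and Col3a1. The paper states that ScxGFP transcripts are counted as Scx, so no Scx level here is that of the endogenous gene. Haemoglobin-rich, immune, endothelial, mural, neural and muscle cells were first set apart by their markers. The control library gave 1134 Scx-high cells, 674 Scx-low fibroblasts and 198 immune cells, and the mutant library gave 206, 1787 and 203. Scx-low fibroblasts were thus 28.5% of control and 68.9% of mutant cells. Their name follows the counts alone, and whether they are the same kind of cell in both libraries was not tested. Levels are summed UMIs per 1000000 UMIs of the same cells (CPM), with exact Poisson 95% intervals, which cover counting error only. Each condition is 1 library, so no test was possible, and the condition and the batch cannot be told apart. Fewer cells of one type and less RNA per cell also cannot be told apart within any summed level of the whole library.

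Depth differed between the libraries, with a median of 3867 UMIs per cell in 2364 control cells and 2828 in 2592 mutant cells, and 2 barcodes occurred in both. Of the markers that had not defined the groups, Fmod stood at 5411 CPM in control Scx-high cells against 288 in control Scx-low fibroblasts, and Pdgfra at 7.42 against 80.5. In the mutant they stood at 2685 against 355 CPM for Fmod and at 15.5 against 77.4 for Pdgfra. Summed over 6 tendon markers (Fmod, Col1a1, Thbs4, Mkx, Kera, Tnmd), the levels were 90208 against 13072 CPM in the control and 33560 against 14247 in the mutant. For 6 fibroblast markers (Pdgfra, Clec3b, Mfap5, Pi16, Dcn, Gsn) the split was narrower. Their sums were 13651.5 against 17344 CPM in the control and 8211 against 13480 in the mutant. The cells called muscle went against that name in the control, where Tnmd, a tendon marker, reached 8336 CPM, so they are not read as muscle here. Free RNA was present, since 62.5% of control and 13.9% of mutant haemoglobin-rich cells held an Scx UMI. Tgfbr2 (chromosome 9, 116084293 to 116175360, GRCm38) stood at 30.3 CPM in control and 48.6 in mutant Scx-high cells, and at 75.7 and 72.8 in Scx-low fibroblasts. A 3′ count need not fall when internal exons are removed, so Tgfbr2 does not check the labels.

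The 6 genes lie on 5 chromosomes of GRCm38, the assembly also called mm10. Cd44 spans chromosome 2 from 102811141 to 102901665 and Tnfaip6 lies on the same chromosome from 52038009 to 52056686. Prg4 is on chromosome 1 (150449412 to 150466165), Vcan on chromosome 13 (89655312 to 89742509), Has2 on chromosome 15 (56665627 to 56694539) and Has1 on chromosome 17 (17843323 to 17855205). All are protein-coding, and Tnfaip6 alone is on the plus strand. A RefSeq start-site window was matched for 4 of the 6 genes. The 250 bases before the RefSeq start are shown for Tnfaip6 and Has1, the members whose windows hold a Smad box. Capitals mark this box, CAGACA, which is bound by the transcription factors of the TGFβ pathway. It was searched on both strands and found once in each of these windows and in neither the Cd44 nor the Vcan window.
Tnfaip6, GRCm38.p6, chr2:52037863-52038112, plus strand: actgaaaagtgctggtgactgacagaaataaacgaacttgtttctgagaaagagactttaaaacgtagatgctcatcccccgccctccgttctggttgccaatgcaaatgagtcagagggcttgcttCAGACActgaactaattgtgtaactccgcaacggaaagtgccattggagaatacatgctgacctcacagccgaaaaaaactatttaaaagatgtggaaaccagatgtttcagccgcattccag
Has1, GRCm38.p6, chr17:17855189-17855438, minus strand: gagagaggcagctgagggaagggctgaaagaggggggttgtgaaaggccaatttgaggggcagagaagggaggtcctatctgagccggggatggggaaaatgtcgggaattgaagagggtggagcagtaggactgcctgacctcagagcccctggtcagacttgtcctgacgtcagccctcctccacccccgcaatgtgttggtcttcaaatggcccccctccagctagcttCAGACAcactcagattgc
The CAGACA match began 123 bases before the RefSeq start in Tnfaip6 and 18 bases before it in Has1. The gene spans given above come from another annotation, GENCODE, whose starts differ. Both printed windows reach into those spans, at 52038009 for Tnfaip6 and 17855205 for Has1. Distances here therefore hold for the RefSeq starts only. It was found in 17.1% of 32851 RefSeq windows of the same length. The AP-1 letters TGANTCA occurred once in the Tnfaip6 window, 142 bases before the start, against 6.75% of all windows, and overlapped a CANNTG match there. CANNTG, the E-box bound by factors such as Scx, occurred in the Tnfaip6, Has1 and Vcan windows and in 66.2% of all windows. These matches describe letters and show no binding.

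In the control library, Cd44, Has1, Tnfaip6 and Vcan sat in the Scx-low fibroblasts rather than in the tendon cells, while Prg4 leaned the other way. Cd44 was counted at 36.7 CPM (31.4 to 42.6) in Scx-high cells and at 245 CPM (226 to 265) in Scx-low fibroblasts, a ratio of 6.68 (5.63 to 7.95). The Scx-low fibroblasts thus held 60.3% of all Cd44 UMIs of the library. Has1, a hyaluronan synthase, gave 129 UMIs at 51.2 CPM there against 6 UMIs at 1.27 CPM, a ratio of 40.2 (18.0 to 112), and 75.9% of its UMIs in the library. Tnfaip6 stood at 176 against 29.9 CPM, a ratio of 5.90 (4.87 to 7.18), and Vcan at 177 against 49.2 CPM, a ratio of 3.60 (3.07 to 4.24). Prg4 was at 145 CPM (135 to 157) in Scx-high cells and at 76.5 CPM (66.1 to 88.1) in Scx-low fibroblasts, so the fibroblasts held 0.527 times the tendon-cell level. Has2 gave 6 and 7 UMIs in the 2 groups and was not compared.

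Of the 5 members with at least 20 UMIs over both control groups, 4 were at least 2-fold higher in the Scx-low fibroblasts and 0 at least 2-fold lower. Among all 10456 genes with that many UMIs, 21.3% were higher by this rule and 6.4% lower. The median log2 ratio was 2.56 for the members and 0.45 for all genes, so the scale itself leaned toward the fibroblasts. Prg4 lay close to the 2-fold line, and its ratio was 0.386 once the ratios were centred on the median gene.

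**Figure D1:**
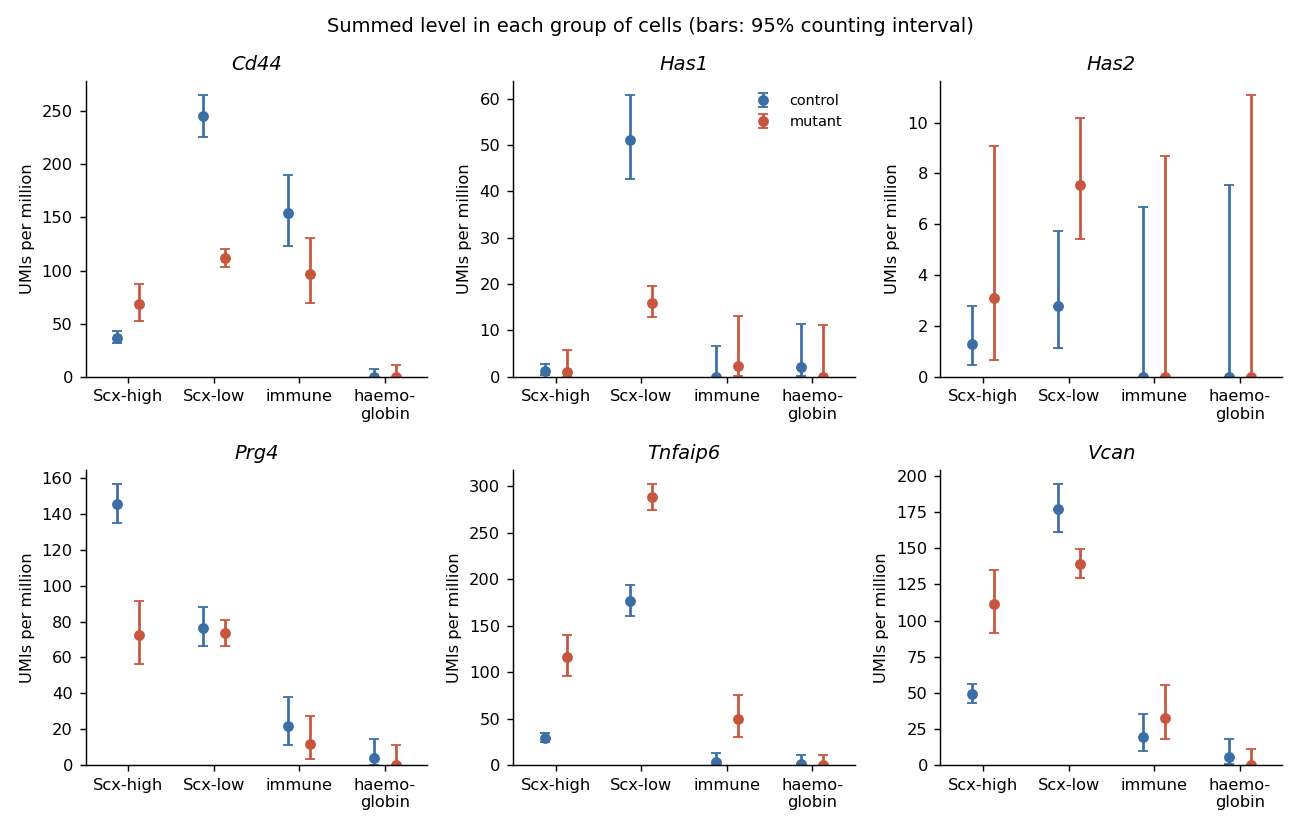
Summed level of each gene in CPM (vertical axis, linear, a separate range in each panel) in Scx-high cells, Scx-low fibroblasts, immune cells and haemoglobin-rich cells; blue points are the control library, red points the mutant library, and bars are 95% Poisson intervals. Cd44 peaks at 245 in control Scx-low fibroblasts and Tnfaip6 at 288 in mutant Scx-low fibroblasts, and the haemoglobin-rich cells stay at or below 6.13 for all 6 genes.

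The same split was narrower in the mutant library. Cd44 stood at 68.3 CPM (52.8 to 86.9) in mutant Scx-high cells and at 111 CPM (103 to 121) in Scx-low fibroblasts, a ratio of 1.63 (1.27 to 2.14). Vcan was at 112 against 139 CPM, a ratio of 1.25 (1.02 to 1.54), which became 2.28 when every cell was thinned to 1500 UMIs. Tnfaip6 kept a wider gap, at 117 CPM (96.4 to 141) against 288 CPM (274 to 303), with a ratio of 2.47 (2.04 to 3.01). Prg4 was level, at 72.4 and 73.5 CPM, and its ratio of 1.01 had an interval of 0.786 to 1.33. Has1 gave 1 UMI in 206 mutant Scx-high cells and 89 UMIs in the Scx-low fibroblasts, a ratio of 15.4 with an interval from 2.70 to 616. Has2 gave 3 UMIs against 42, with a ratio of 2.42 (0.775 to 12.2), so its direction is not settled by these counts. Of the 6 members, 3 were at least 2-fold higher in the Scx-low fibroblasts and 0 lower, where 15.6% and 5.86% of 10546 genes were.

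Between the libraries, Scx-high cells and Scx-low fibroblasts differed in opposite directions for Cd44 and Vcan, although the difference between the 2 ratios was not tested. In Scx-high cells the mutant level of Cd44 was 1.86 times the control level (1.38 to 2.49), while in Scx-low fibroblasts it was 0.455 times (0.406 to 0.509). For Vcan the ratios were 2.27 (1.79 to 2.87) and 0.786 (0.698 to 0.885). Within each class of Scx-low fibroblasts described below, the interval of the Vcan ratio held 1. The Vcan ratio in Scx-high cells was 1.14 after thinning, the only 1 of 13 alternative settings that moved it by more than its interval. The median depth of these cells was 4294.5 UMIs in the control and 4406.5 in the mutant. In mutant Scx-high cells 4 cells held 5 or more Vcan UMIs and carried 32.4% of the group's Vcan UMIs. In control Scx-high cells 2 such cells carried 4.31%. Why thinning lowered the ratio was not tested. Over whole libraries the Cd44 levels lay close together, at 108 and 97.5 CPM, a ratio of 0.899 (0.818 to 0.987). Of the mutant Scx-high cells, 71 of 206 lay at 30 to under 100 Scx UMIs per 10000, against 127 of 1134 control ones. The part of this shift in the Scx-high ratios was not tested. By a limit of 10 Col2a1 UMIs per 10000, 446 of the 1134 control Scx-high cells were Col2a1-positive, against 8 of the 206 mutant ones. In the Col2a1-low cells, 688 control and 198 mutant, the mutant over control ratios were 1.68 for Cd44 and 2.40 for Vcan. In the same cells they were 3.63 for Tnfaip6 and 0.459 for Prg4, and no interval of these ratios held 1. The paper proposes that the ScxGFP-positive cells of mutant tendons are newly recruited.

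Tnfaip6 was higher in the mutant library in both groups, by 3.91 times (3.03 to 5.04) in Scx-high cells and by 1.63 times (1.47 to 1.82) in Scx-low fibroblasts. A single control fibroblast held 67 of the 445 Tnfaip6 UMIs of its group, and without the top cell of each group the ratio in Scx-low fibroblasts was 1.90. After thinning it was 2.10. Over whole libraries the Tnfaip6 ratio was 3.25 (2.97 to 3.56), from 68.7 to 223 CPM. Has2, the synthase of most embryonic hyaluronan, was scarce but pointed the same way, with 7 control and 42 mutant UMIs in Scx-low fibroblasts and a ratio of 2.71 (1.21 to 7.15). Has1 went the other way in these cells, from 51.2 CPM (42.7 to 60.8) to 15.9 CPM (12.8 to 19.6), a ratio of 0.312 (0.235 to 0.412). Mural cells also gave a Has1 ratio under 1, at 0.387 (0.118 to 0.995), from 34 control and 5 mutant UMIs. Prg4 was lower in mutant Scx-high cells, at 0.499 times the control level (0.384 to 0.638), and near equal in Scx-low fibroblasts, at 0.960 times (0.807 to 1.15).

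In Scx-high cells 4 members had enough UMIs, of which 2 were at least 2-fold higher in the mutant (Tnfaip6 and Vcan) and 1 lower (Prg4), where 12.4% and 8.26% of 9595 genes were. In Scx-low fibroblasts 1 of 6 was higher (Has2) and 2 lower (Cd44 and Has1), where 6.01% and 5.78% of 11008 genes were. The median log2 ratio over all genes was 0.25 in Scx-high cells and -0.02 in Scx-low fibroblasts. Summed immediate early genes, which dissociation can raise, stood at 2449 CPM in control and 2242 in mutant Scx-high cells, and at 3101 and 5231 CPM in the Scx-low fibroblasts, and their part in the Tnfaip6 and Has2 levels was not tested.

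**Figure D2:**
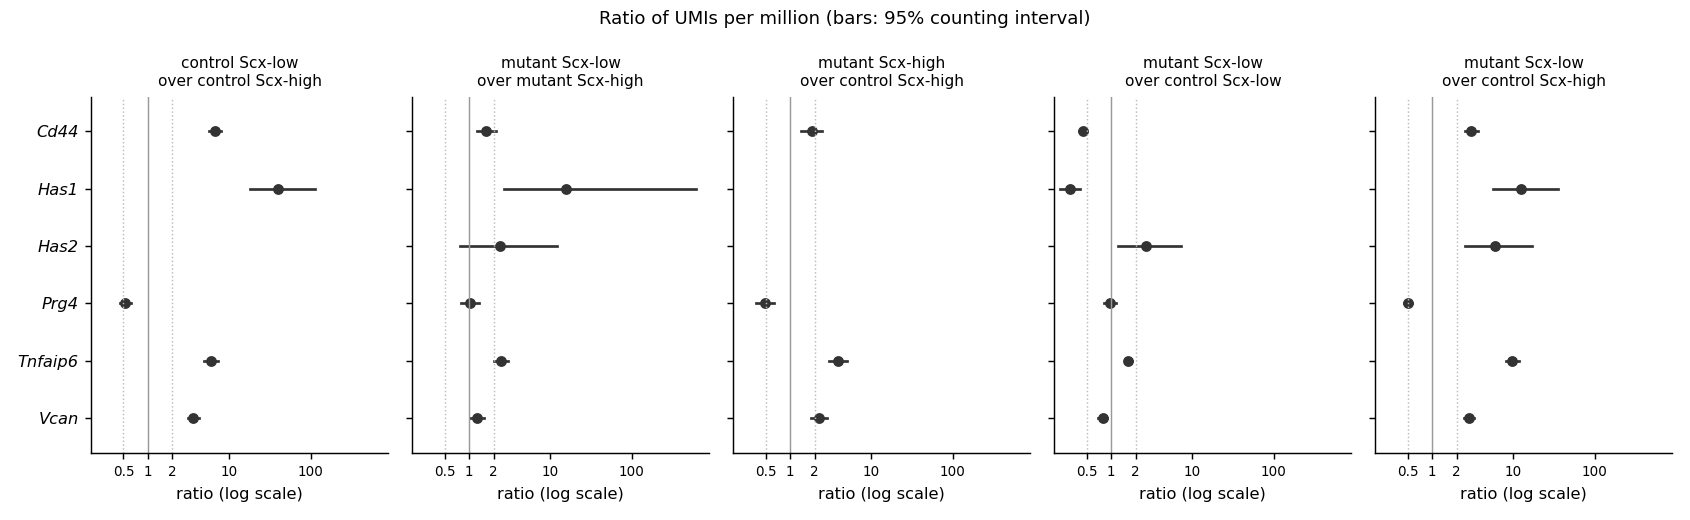
Ratio of CPM for each gene in the 5 comparisons (horizontal axis, log scale), with points for genes of at least 20 UMIs over both groups and lines for exact conditional 95% intervals; the solid vertical line is a ratio of 1 and the dotted lines are 0.5 and 2. Cd44 lies right of 1 in the mutant over control Scx-high panel, at 1.86, and left of 1 in the Scx-low panel, at 0.455.

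Mutant Scx-low fibroblasts were also set against control Scx-high cells, the pair nearest to the study's own comparison of tenocytes with mutant tendon cells. By this measure Tnfaip6 was 9.64 times higher (8.11 to 11.5), Has1 12.5 times (5.54 to 35.1), Has2 5.92 times (2.50 to 17.0), Cd44 3.04 times (2.56 to 3.62) and Vcan 2.83 times (2.44 to 3.29). Prg4 was at 0.506 times the control tenocyte level (0.446 to 0.573). Of the 6 members 5 were at least 2-fold higher and 0 lower, where 22.6% and 6.63% of 11233 genes were. This comparison shares its cells with the comparisons above. Of its 89 mutant Has1 UMIs, 45 came from 218 Pi16-positive cells and 7 from Tnmd-keeping cells, classes described below. In the mutant fibroblasts with neither marker, also described below, the Has1 ratio to control Scx-high cells was 8.20 (3.43 to 23.8). The control Scx-high cells of the comparison include the 446 Col2a1-positive ones. Cd44 stood at 37.2 CPM in the Col2a1-low and 35.8 in the Col2a1-positive control cells, Vcan at 47.2 and 52.8. Tnfaip6 was at 32.9 and 24.6 CPM there, and Prg4 at 161 and 117. Cd44, Has1 and Vcan, all higher here, were lower in the same mutant cells when the control fibroblasts served as the reference. The paper traces the ScxGFP-negative cells of mutant tendons to tenocytes and lists Cd44 among the genes raised in them. By staining it reports CD44 protein in mutant tendon cells, and in the wild type in the epitenon and very few tendon cells.

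The Scx-low fibroblasts held several classes, and the members differed between them. Pi16, a marker of loose connective tissue fibroblasts, and Tnmd divided them into 3 classes. There were 106 control and 392 mutant Tnmd-keeping cells, 219 and 218 Pi16-positive cells, and 349 and 1177 cells with neither. Pi16-positive cells held at least 2 Pi16 UMIs, and Tnmd-keeping cells, among the rest, at least 10 Tnmd UMIs per 10000. Cells called with neither marker lay under both limits and could hold some UMIs of either. The Pi16 limit is a count and so depends on depth, a median of 3995 UMIs in control and 3184.5 in mutant Pi16-positive cells. Cd44 was highest in the control cells with neither marker, at 313 CPM (283 to 345), and the mutant cells of that class stood at 116 CPM (105 to 128), a ratio of 0.372 (0.324 to 0.428). Its ratio lay nearer 1 in the Pi16-positive class, 0.670 (0.516 to 0.866), and in the Tnmd-keeping class, 0.687 (0.479 to 0.9999). The lower Cd44 level of the mutant was thus seen in all 3 classes, with an upper bound close to 1 in the last.

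Has1 was lower in the mutant in the class with neither marker, where 84 control UMIs at 64.6 CPM stood against 37 mutant UMIs at 10.4 CPM, a ratio of 0.162 (0.107 to 0.240). In the Pi16-positive class the Has1 levels were 49.6 and 59.4 CPM, and the interval of their ratio, 0.774 to 1.86, held 1. Tnmd-keeping cells held 1 control and 7 mutant Has1 UMIs. Tnfaip6 was higher in the mutant in every class, at 2.72 times in Tnmd-keeping cells (1.79 to 4.33), 2.14 times in Pi16-positive cells (1.76 to 2.62) and 1.49 times in cells with neither (1.30 to 1.71).

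Prg4 differed in opposite directions in the Tnmd-keeping and the Pi16-positive cells. In Tnmd-keeping cells it went from 240 CPM (80 UMIs) in the control to 99.6 CPM (127 UMIs) in the mutant, a ratio of 0.415 (0.311 to 0.556). In Pi16-positive cells it went from 12.4 CPM (11 UMIs) to 89.8 CPM (68 UMIs), a ratio of 7.25 (3.81 to 15.2), although 1 mutant cell held 18 of those 68 UMIs. Vcan was highest in Pi16-positive cells of both libraries, at 238 CPM in the control and 199 CPM in the mutant, with a ratio of 0.839 (0.676 to 1.04). Its ratio was 1.47 (0.918 to 2.46) in Tnmd-keeping cells and 0.866 (0.737 to 1.02) in cells with neither marker. All of these Vcan intervals held 1. Has2 in the class with neither marker gave 1 control and 27 mutant UMIs.

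**Figure D3:**
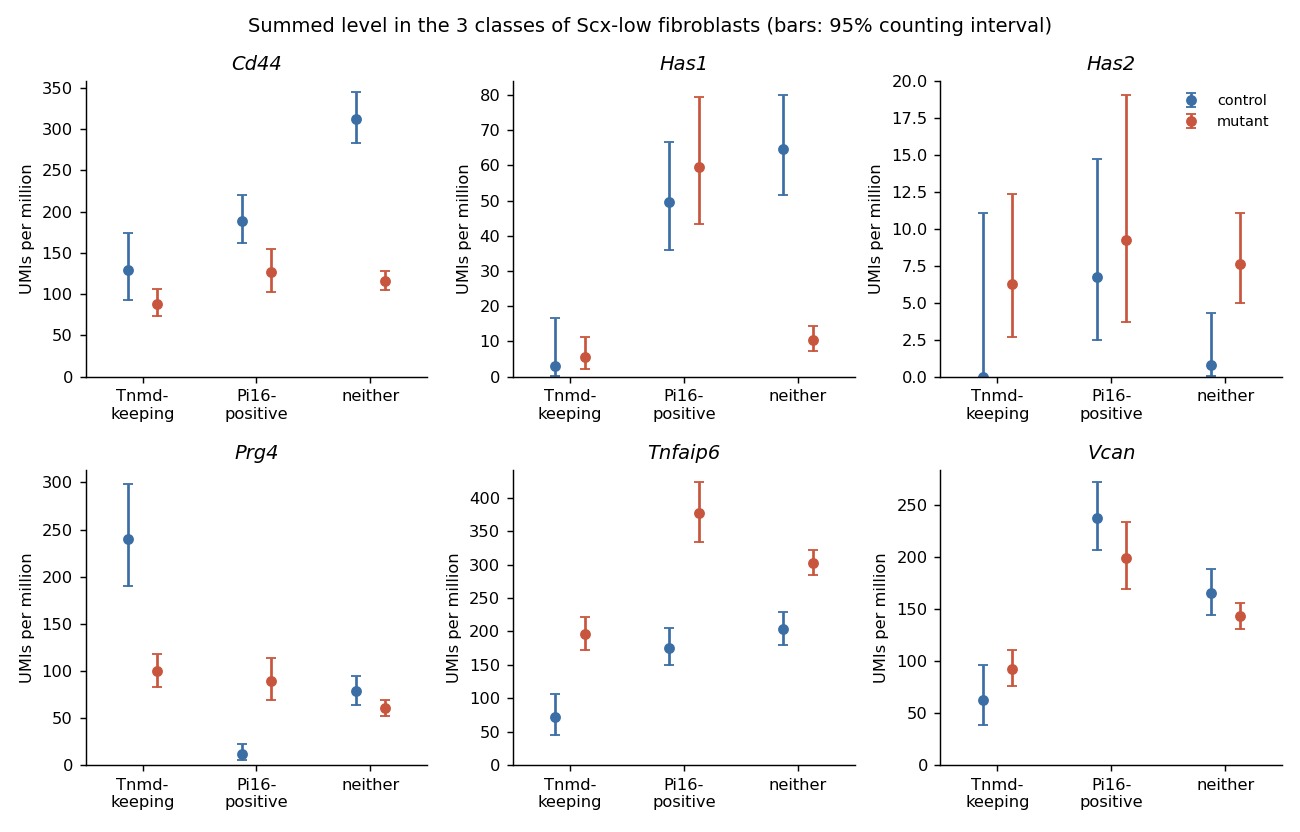
Summed level in CPM (vertical axis, linear, a separate range in each panel) in the Tnmd-keeping, Pi16-positive and remaining Scx-low fibroblasts of the control (blue) and mutant (red) library, with 95% Poisson intervals. Cd44 and Has1 stand apart most in the cells with neither marker, 313 against 116 and 64.6 against 10.4, and Prg4 reverses between the Tnmd-keeping and the Pi16-positive class.

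Across finer steps of the Scx share of the cell, control levels of Cd44, Vcan and Tnfaip6 were lowest in the cells richest in Scx, and mutant levels of Cd44 spanned a narrower range. Control Cd44 was at 211 CPM in cells without an Scx UMI, 296 CPM at under 5 per 10000, 113 CPM at 10 to under 30 and 29.7 CPM at the top step, the cells richest in Scx. The mutant values at these steps were 114, 113, 86.4 and 76.3 CPM. Depth differed between the steps, with a median of 3184 UMIs in control cells without Scx and 4331.5 at under 5. In the mutant these medians were 2762.5 and 3578. Free Scx RNA, seen in the haemoglobin-rich cells, also differed between the libraries. The same step therefore need not hold like cells in both, and the part of depth and free RNA was not tested. At 30 to under 100, Cd44 was at 76.1 CPM (52.4 to 107) in the control and at 89.8 CPM (58.7 to 132) in the mutant, with overlapping intervals. At 100 to just below the top step, which held 676 of the 1134 control Scx-high cells, Cd44 was at 34.3 CPM (27.8 to 41.9) in the control and at 40.2 CPM (21.4 to 68.7) in the mutant, its lowest mutant value, and the intervals overlapped. At the top step the Cd44 intervals did not overlap, at 21.6 to 39.8 in the control and 50.3 to 111 in the mutant. Tnfaip6 ran from 139 CPM without Scx to 23.6 CPM at the top step in the control, and from 309 to 136 CPM in the mutant. Control Prg4 peaked in the middle, at 309 CPM in the 127 cells of 30 to under 100, against 52.7 CPM without Scx and 45.8 CPM at the top step. In mutant cells of that middle step Prg4 stood at 117 CPM.

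**Figure D4:**
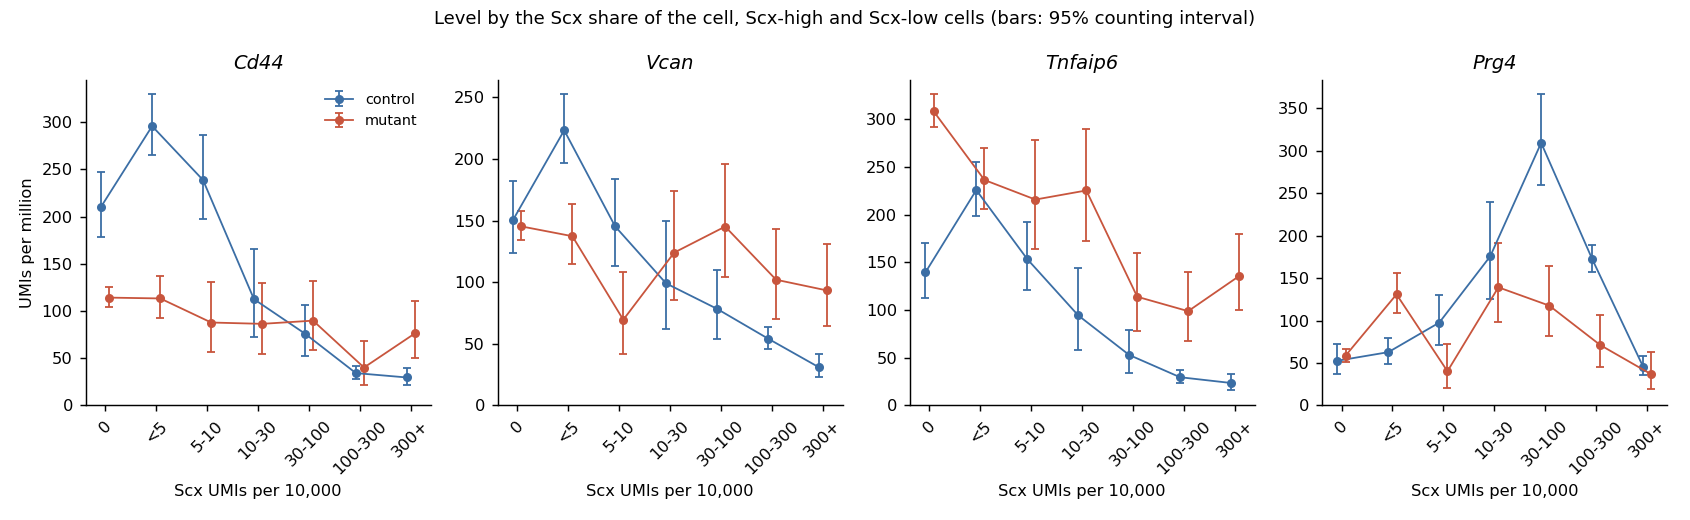
Level of Cd44, Vcan, Tnfaip6 and Prg4 in CPM (vertical axis, linear) in Scx-high and Scx-low cells grouped by their own Scx UMIs per 10000 (horizontal axis), for the control (blue) and mutant (red) library, with 95% Poisson intervals. Control Prg4 peaks at 309 in the 30 to under 100 step, and control Cd44 is 296 at under 5 and 29.7 at the top step.

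For Cd44 the share of cells with a UMI gave the same order as CPM at 1 depth. After every cell was thinned to 1500 UMIs, Cd44 was found in 4.95% of control Scx-high cells (exact binomial interval 3.72 to 6.44) and in 19.7% of control Scx-low fibroblasts (16.7 to 23.0). The mutant shares were 10.1% (6.16 to 15.3) and 13.3% (11.7 to 15.1). As counted, the 4 shares were 13.4%, 33.4%, 19.4% and 23.8%. Tnfaip6 was found in 29.3% of thinned mutant Scx-low fibroblasts (27.1 to 31.6) against 13.1% of control ones (10.6 to 16.0), and in 14.3% against 4.19% of Scx-high cells. Unthinned, these were 42.9% against 26.0%, and 30.6% against 11.1%. After thinning, the Tnfaip6 share of mutant Scx-high cells, 14.3%, thus lay inside the interval of control Scx-low fibroblasts, so their order by share is not settled. By CPM, Tnfaip6 in mutant Scx-high cells stood below, at 117 against 176. Vcan in thinned Scx-high cells was found in 7.41% of mutant cells (4.11 to 12.1) and 6.57% of control cells (5.14 to 8.24), which overlap. In haemoglobin-rich cells, used here as a background, none of the 6 genes passed 3.41% of the 88 control cells as counted. In the mutant 0 of 79 cells held a UMI of any member, which by the limit of 3 counts allows a share of up to 3.80%. These cells had a median of 5682 UMIs in the control and 4451 in the mutant, but over 50% of each cell's UMIs were haemoglobin, so their depth for other genes was lower and the background they give is a weak one.

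Much of the Cd44 signal of the control came from few cells. In control Scx-low fibroblasts 39 of 674 cells (5.79%, 4.15 to 7.83) held 5 or more Cd44 UMIs, and they carried 50.2% of the Cd44 UMIs of the group. Among mutant Scx-low fibroblasts there were 6 such cells of 1787 (0.336%, 0.123 to 0.729), which carried 8.20%. The control cells were deeper, with a median of 3565 UMIs against 2872, and the part of depth in these counts was not tested. Prg4 was concentrated too, with 51.97% of its UMIs in control Scx-high cells in 41 of 1134 cells, and 61.2% of those in mutant Scx-low fibroblasts in 22 of 1787. For Tnfaip6 the rich cells were more frequent in the mutant, 60 of 1787 (3.36%, 2.57 to 4.30) against 12 of 674 (1.78%, 0.923 to 3.09).

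**Figure D5:**
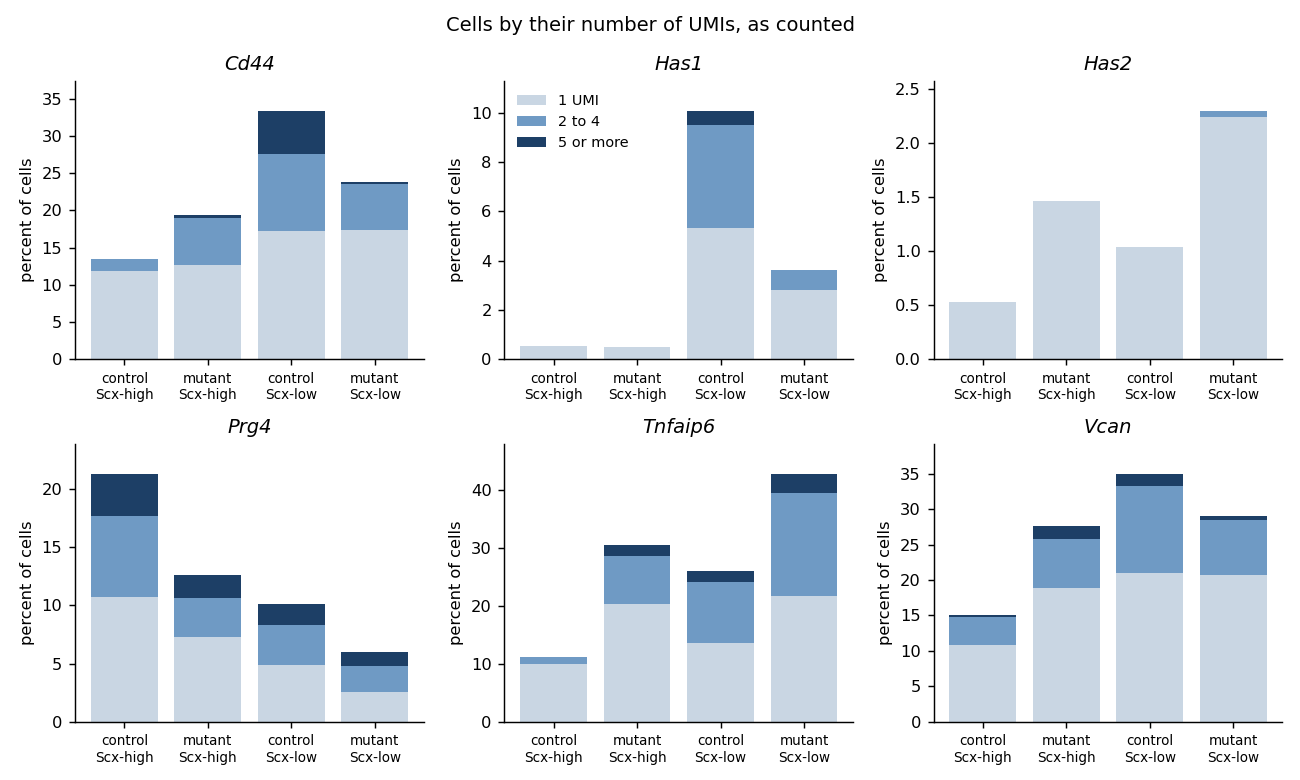
Percent of cells (vertical axis, linear, a separate range in each panel) with 1, with 2 to 4 and with 5 or more UMIs of each gene, as counted, in the Scx-high and Scx-low cells of both libraries. The dark segment for Cd44, cells of 5 or more UMIs, is 5.79% of control Scx-low fibroblasts and 0.336% of mutant ones.

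The control fibroblasts rich in Cd44 were rich in other genes of the hyaluronan system. Chosen here for their Cd44 count, with no test, these 39 cells held Tnfaip6 at 764 CPM against 116 CPM in the other 635 cells, Has1 at 140 against 42.0 CPM and Vcan at 378 against 157 CPM. Several enzymes of nucleotide sugar synthesis were also higher there. Ugp2 stood at 976 against 273 CPM, Uap1 at 789 against 219 CPM and Ugdh at 700 against 238 CPM. Gfpt1 of the same list was lower, at 12.7 against 35.4 CPM (3 UMIs). Prg4 stood at 42.4 against 80.0 CPM, Tnmd at 161 against 1013 CPM and Pi16 at 394 against 887 CPM. The rich cells had a median of 5351 UMIs and the others 3501, which the CPM scale takes into account but which favours deep cells in the choice. The 6 mutant fibroblasts chosen in the same way held Ugdh at 1237 against 138 CPM in the other 1781, Uap1 at 1039 against 114 and Ugp2 at 717 against 133. Vcan stood at 791 against 134 CPM there, Tnfaip6 at 470 against 287, and Has1 at 124 (5 UMIs) against 15.2. Gfpt1 was lower, at 24.7 against 37.9 CPM (1 UMI), and Prg4 gave 0 UMIs. In thinned control fibroblasts, Cd44 was found in 14 of 32 cells with Has1 (43.8%) and in 18.4% of the 602 without, and in 37.3% of the 83 cells with Tnfaip6 and 17.1% of those without. In the mutant, the shares were 17.9% of 28 cells with Has1 and 13.2% without, and 15.3% of 476 cells with Tnfaip6 and 12.5% without. Vcan was found in 18.1% of thinned control fibroblasts with Tnfaip6 and 18.3% without, and in 19.1% and 16.9% of mutant ones. For Has1 the Vcan shares were 15.6% with and 18.4% without in the control, and 28.6% and 17.4% in the mutant.

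Immune cells carried Cd44, a known leukocyte homing receptor, and little else of the group. Cd44 stood at 154 CPM (123 to 190) in 198 control immune cells and at 96.6 CPM (69.3 to 131) in 203 mutant ones, a ratio of 0.628 (0.422 to 0.922). Has2 gave no UMI in either library, and Has1 gave 0 and 1. Vcan was at 19.9 and 33.0 CPM, from 11 and 14 UMIs, and Prg4 at 21.7 and 11.8 CPM, from 12 and 5. Tnfaip6 gave 2 control and 21 mutant UMIs, a ratio of 13.7 (3.34 to 120), with 11 of the 21 in 32 immune cells low in C1q genes. These 32 cells also held Scx at 4910 CPM, and the part of RNA from other cells in the Tnfaip6 level was not tested.

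Over the 15 marker-defined groups of at least 20 cells, counting each library's groups apart and leaving out the cells that met no rule, control Scx-low fibroblasts had the highest level of Cd44, Has1 and Vcan, and mutant Scx-low fibroblasts the highest of Tnfaip6 and Has2. For Cd44, mural cells (155 CPM) and immune cells (154 CPM) of the control came next, with intervals that overlapped each other but not the leader's. For Has1, control mural cells at 39.9 CPM overlapped the leader, and 1 of those cells held 11 of their 34 UMIs. For Tnfaip6, mutant neural cells came second at 211 CPM, from 30 UMIs, and overlapped the leader. For Has2, control mural cells came second at 4.70 CPM, from 4 UMIs, and overlapped the leader, so its rank is not settled by these counts. For Vcan, mutant Scx-low fibroblasts came second and their interval did not overlap the leader's. Prg4 was highest by its sum in mutant mural cells, at 436 CPM, but 1 cell held 139 of those 141 UMIs and the level without it was 6.33 CPM. Control Scx-high cells came next for Prg4, with an interval above that of the next group, control mural cells. The 26 control cells that met no rule held Prg4 at 305 CPM (167 to 511), from 14 UMIs.

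The pathway around the members was read from lists, by counts and medians, with genes at least 2-fold apart counted. Where a list had few such genes they are named, some of them chosen after their values were seen. Of all genes, 21.3% were higher and 6.4% lower in the control split, and 15.6% and 5.86% in the mutant split. Between the libraries these shares were 12.4% and 8.26% in Scx-high cells and 6.01% and 5.78% in Scx-low fibroblasts. The medians over all genes were 0.45, 0.16, 0.25 and -0.02 in this order. Lists are short, and no count was tested against these shares. Of the 9 genes for hyaluronan synthesis and its sugar precursors, 8 had enough UMIs in the control groups, of which 5 were at least 2-fold higher in Scx-low fibroblasts and 0 lower, with a median log2 ratio of 1.97 against 0.45 for all genes. Ugdh (9.28 times), Ugp2 (8.06 times) and Gfpt2 (7.56 times) led them. Between the libraries, 3 of 7 genes of the list were at least 2-fold lower in mutant Scx-low fibroblasts (Ugp2, Uap1 and Gnpnat1) and 0 higher, with a median of -0.95 against -0.02. The intervals of Gfpt1, Gfpt2 and Pgm3, with ratios of 1.14, 1.03 and 0.880, held 1. In mutant Scx-high cells 2 of 7 were higher, Ugp2 at 2.61 times and Gfpt2 at 2.64 times, 0 were lower, and the median was 0.82 against 0.25. The summed level of 8 precursor genes went from 1152 to 580 CPM in Scx-low fibroblasts and from 264 to 429 CPM in Scx-high cells. Within the fibroblasts, the sum was 1472 CPM in control and 985 CPM in mutant Pi16-positive cells, 1111 and 551 CPM in cells with neither marker, and 462 and 420 CPM in Tnmd-keeping cells. In the mutant split 2 of 7 were higher in Scx-low fibroblasts, Ugdh and Gfpt2, and 0 lower (median 0.24).

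Hyaluronan breakdown was represented by 8 genes of the table. In Scx-low fibroblasts 0 of 6 with enough UMIs passed 2-fold between the libraries in either direction, and the median was 0.27. In Scx-high cells 2 of 7 were higher in the mutant and 1 lower, with a median of 0.90. Cemip, a hyaluronan depolymerisation factor, stood at 36.2 against 2.76 CPM there, a ratio of 13.1 (6.78 to 27.1), and Hyal1, a lysosomal hyaluronidase, at 2.07 against 11.2 CPM. In the control split between groups 0 of 6 passed 2-fold (median 0.51), and in the mutant split 1 of 7 was higher in the fibroblasts (Hyal1) and 1 lower (Cemip), with a median of 0.02.

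Among 18 receptors and binding proteins, 5 had enough UMIs in Scx-low fibroblasts of both libraries, of which 2 were higher in the mutant (Acan and Ptx3), 1 lower (Itih5), and the median was -0.56. Ptx3, which joins Tnfaip6 and heavy chains in crosslinking the matrix, went from 11.5 to 40.7 CPM, a ratio of 3.54 (2.40 to 5.40), and Itih5, a source of heavy chains, from 258 to 73.7 CPM. In Scx-high cells 1 of 5 was higher and 3 lower in the mutant, with a median of -1.36, or -0.77 when Hapln3, at 0 mutant UMIs, was set at the limit of 3 UMIs. In the control split 2 of 6 were higher in the fibroblasts and 3 lower, with a median of -0.73. Ptx3 led the first with 29 UMIs against 1, and the cartilage proteoglycan Acan led the second, at 19.0 against 251 CPM. The mutant split gave 2 of 5 higher (Ptx3 and Itih5) and 2 lower, with Acan again lower at 48.2 against 412 CPM (median -0.70).

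Of 6 versican-cleaving proteases 5 had enough UMIs in each comparison. In Scx-low fibroblasts 1 was higher in the mutant, Adamts4 at 10.4 against 2.78 CPM (7 control UMIs), and 0 lower, with a median of -0.16. In Scx-high cells 0 were higher and 2 lower, Adamts15 at 2.07 against 13.4 CPM and Adamts9 at 6.21 against 23.7 CPM, with a median of -0.36. In the control split 1 was higher in the fibroblasts, Adamts5 at 5.53 times, and 1 lower, Adamts9, with a median of 0.50. In the mutant split 4 of 5 were higher in the fibroblasts and 0 lower, with a median of 1.38 against 0.16 for all genes. Adamts5, the main aggrecanase of mouse cartilage, led them at 98.9 against 15.5 CPM.

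Among the partners and ligands of Cd44, the secreted ligand Spp1 (osteopontin) showed the largest ratio of any listed gene between the libraries within the same group of cells. It stood at 894 CPM in mutant Scx-high cells, in 68 of 206 cells, against 5.30 CPM in control ones, a ratio of 169 (113 to 262), and the fullest cell held 94 of the 864 UMIs. In Scx-low fibroblasts it went from 8 to 522 UMIs, a ratio of 29.5 (14.9 to 68.7). Moesin (Msn), which ties the tail of Cd44 to actin, followed the direction of Cd44, at 3.77 times in Scx-high cells and 0.465 times in Scx-low fibroblasts. In the list of 6, 3 of 5 were higher and 0 lower in mutant Scx-high cells (median 1.19), and 2 were higher (Spp1 and Mmp14) and 2 lower (Msn and Ezr) in mutant Scx-low fibroblasts (median -0.26). In the control split 1 of 5 was higher in the fibroblasts, Msn, and 0 lower (median 0.24), and in the mutant split 0 were higher and 2 lower, Spp1 and Msn (median -0.64).

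The 6 surface zone and lining genes named with Prg4 gave 4 with enough UMIs. In mutant Scx-low fibroblasts 3 were higher, Erg at 4.59 times, Clu at 2.86 times and Thbs4 at 2.12 times, and 1 lower, Creb5 at 0.429 times, with a median of 1.30. In Scx-high cells 2 were higher, Creb5 and Erg, and 0 lower (median 1.07), while Prg4 itself was lower. Creb5, a factor of the articular surface zone, thus shared the direction of Cd44 in both groups. In the control split 1 was higher in the fibroblasts, Creb5 at 187 against 18.2 CPM, and 2 lower, Erg and Thbs4 (median -1.23). In the mutant split 1 was higher, Clu, and 1 lower, Thbs4 (median -0.27).

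Set against control Scx-high cells, mutant Scx-low fibroblasts had 3 of 8 synthesis genes higher and 0 lower (median 0.77), 2 of 7 breakdown genes higher and 0 lower (0.67), and 1 of 6 binding proteins higher and 3 lower (-1.40). Of the proteases 2 of 5 were higher and 1 lower (0.97), of the Cd44 partners 2 of 5 higher and 1 lower (0.91), and of the surface zone genes 1 of 4 higher and 0 lower (0.59). Over all genes the median was 0.42, with 22.6% higher and 6.63% lower. Ptx3 gave 227 UMIs against 1, and Hapln3, a link protein that locks proteoglycans onto hyaluronan, 2 against 25.

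Against each member, the genes with the most similar level over 23 groups of at least 20 cells were listed, with no p, since the groups share libraries and depth and some were defined by genes of these lists. For Cd44 they were Creb5 (Pearson r = 0.89), Cited2 (0.89) and Ugp2 (0.89). For Vcan they were Nbl1 (0.92), Ugdh (0.92) and Nnmt (0.92), for Tnfaip6 Lum (0.93), Postn (0.93) and Prrx2 (0.92), and for Has1 Cd55 (0.91), Adamtsl5 (0.90) and Cd248 (0.88). For Prg4 they were Shox2 (0.85), Dnm3os (0.84) and Col6a3 (0.83), and for Has2, with 64 UMIs in all, Spon1 (0.81). Lum and Dpt helped to define the Scx-low fibroblasts, so their likeness to Tnfaip6 is partly built in. Within the 6 members, Tnfaip6 and Vcan were most alike (0.86) and Has1 and Prg4 least (0.21).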

How the data were processed

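Libraries were made with 10x 3′ chemistry from P7 limb tendon cells, and reads were assigned to mm10 and counted as UMIs per gene and cell by the authors. The methods name another Cell Ranger release than the submitters' processing notes, which give version 1.2.0. The deposited values are raw counts of 27998 genes. The 6 genes and all lists were chosen with earlier results of these data known.

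Cells were grouped by summed marker UMIs, and counts were summed per group and divided by the group's total (CPM). Level intervals are exact Poisson, share intervals exact binomial (Clopper-Pearson) and ratio intervals exact conditional, all at 95% and for counting error only. Each library is a pool of 2 pups and the only one of its condition, so no test was made. Genes with at least 20 UMIs over both groups and a ratio of at least 2 or at most 0.5 were counted. For shares, cells were thinned to 1500 UMIs, which left out 199 control and 328 mutant cells over the libraries. The 6 genes were always named. The plan was to name at most 6 list genes a comparison, largest ratio first, but more were named in some comparisons and not always in that order. For each member the 5 genes nearest in log2(CPM + 10) were found among 7182 genes with at least 200 UMIs, and not all of them are printed. Scrublet in Scanpy 1.11.5 called 10 control and 5 mutant cells as doublets (0.423% and 0.193%), too few to rely on, and none was removed. Total UMIs per cell ran from 948 to 14358 in the control and from 903 to 15968 in the mutant. Python 3.11.15, NumPy 2.4.6, SciPy 1.17.1, pandas 2.3.3 and Matplotlib 3.10.9 were used, and the scripts were tested on simulated data. Alternatives changed the marker limits, cell filter, weighting, normalization, depth, UMI minimum and fold. Leaving out the top cell of each group was chosen after seeing the data.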

Additional observations from a re-analysis of the deposited data

Results flagged for a closer look

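Cd44 stood out because its mutant over control ratio lay on opposite sides of 1 in the groups, 1.86 in Scx-high cells and 0.455 in Scx-low fibroblasts. Vcan stood out in the same way, at 2.27 and 0.786, but after thinning these were 1.14 and 0.903. Within each class of Scx-low fibroblasts the interval of the Vcan ratio held 1. Within Scx-high cells, the Cd44 intervals of the libraries overlapped at each step of the Scx share below the top one. Control and mutant levels there were 76.1 and 89.8 CPM, then 34.3 and 40.2 CPM. At the top step, 29.7 and 76.3 CPM, they did not overlap. The lowest of these steps held 71 of 206 mutant and 127 of 1134 control Scx-high cells. The part of this shift in the Cd44 ratio of 1.86 was not tested. Each ratio comes from 1 library per condition, and the difference between the groups was not tested.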

How the results depend on the processing

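With 1 library per condition, counting error is the only error measured. No paired analysis was possible because each condition has 1 library and no test was made. Of 347 ratios under the alternatives, 306 moved by less than their interval, 41 by more, and 0 reversed a called direction. The Cd44 ratio of mutant to control ran from 1.51 to 2.22 in Scx-high cells and from 0.437 to 0.540 in Scx-low fibroblasts. Of 150 counts, 125 stayed within 1.5 times.

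The other 25 counts moved further. In the control split, the count lower in fibroblasts was 1 and not 0 with Scx-high set from 10 per 10000, Scx-low from 10 UMIs, the 20 most abundant genes left out, centring on the median gene, thinning to 1500 UMIs, or a fold of 1.5. In Scx-high cells, the mutant count higher was 1 and not 2 without the 20 most abundant genes or after centring, and the count lower was 0 and not 1 with Scx-high from 10, the cell filter or a mean over cells. In Scx-low fibroblasts, the count higher was 2 with a mean over cells, thinning or a fold of 1.5 and 0 with at least 50 UMIs, which left out Has2, and the count lower was 1 with a mean over cells or thinning. For mutant Scx-low over control Scx-high, the count lower was 1 and not 0 with Scx-high from 10, immune from 2 UMIs, a mean over cells, the 20 genes left out, centring, thinning, a fold of 1.5 or the top cell left out. Apart from Has2, the cause was not tested.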

Other observations

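Outside the fibroblasts and tendon cells, control mural cells held Cd44 at 155 CPM and mutant ones at 95.8 CPM, a ratio of 0.618 (0.404 to 0.920). Vcan in the same cells was at 84.5 and 58.7 CPM, with a ratio of 0.695 (0.396 to 1.16). In immune cells rich in C1q genes, which mark tissue macrophages, Cd44 was at 162 CPM in 185 control cells and 85.3 CPM in 171 mutant cells, a ratio of 0.528 (0.331 to 0.818). Endothelial cells gave 3 Cd44 UMIs in each library.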
